A study of Mus musculus with 8 samples.

Results

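The genes described here are the 4 mouse Notch receptor genes (Notch1, Notch2, Notch3 and Notch4), 4 genes of their ligands (Dll1, Dll4, Jag1 and Jag2) and 2 genes that the pathway switches on (Hes1 and Heyl). They were taken by name from the 55487 genes of the count table, and all 10 had enough reads to be tested. By the labels, the RNA came from germ cells isolated by fluorescence-activated cell sorting from testes of fetal C57BL/6 mice. Their age is left out of the labels. Of the 8 libraries, the 4 labelled WT came from Oct4-eGFP+/+ control littermates, and the 4 labelled KO from fetuses that were Rhox10-null on the same Oct4-eGFP+/+ background, so every animal carried the reporter, a green fluorescent protein under control of the germ cell and pluripotency gene Oct4 (Pou5f1). Rhox10 is an X-linked homeobox gene. Whether each library is a separate animal, a pool or a repeat is not in the labels, and p-values measure only the spread between libraries, which may be technical.

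Notch receptors are membrane proteins that bind Delta-like (Dll) and Jagged (Jag) ligands on a neighbouring cell. Binding exposes the receptor to the protease ADAM10 and then to gamma-secretase, which frees its intracellular part to enter the nucleus, join the DNA-binding protein RBPJ and a Mastermind coactivator, and turn on repressor genes of the Hes and Hey families. In the fetal testis the pathway is known for holding interstitial cells in a progenitor state from which Leydig cells arise, and in blood vessels it acts in endothelial and mural cells.

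The libraries held 16346977 to 20311338 counts. Rhox10 itself had 17 to 25 counts per WT library and 10 to 22 per KO library (log2 fold change -0.28, edgeR adjusted p = 0.767), so its reads did not separate the labels. The sources used here do not locate the mutation within Rhox10, and every direction below is between libraries by label. The germ cell label was checked against markers. Ddx4, Dazl, Kit and the other 7 germ cell markers summed to 169 to 186 CPM (counts scaled to library size, here with TMM composition factors) in WT libraries and 174 to 183 in KO libraries, and none was at 0 in all libraries. Of the 9 tested, Dazl, an RNA-binding protein gene, and Dppa3 rose (log2 fold change 0.37 and 0.41, edgeR adjusted p = 6.24e-05 and 0.00117), Tdrd1, a Tudor gene of the piRNA pathway, fell (-0.43, adjusted p = 3.27e-08), and 6 did not pass. Genes that define somatic cells were also read at high levels: 6 Leydig cell genes summed to 2866 to 2904 CPM in WT libraries and 2610 to 2654 in KO libraries, 8 genes of the interstitial stroma to 6520 to 6568 and 6288 to 6464, and 9 Sertoli cell genes to 827 to 859 and 797 to 822. Per kb of exons, the Leydig cell gene Cyp17a1 was at 474 ± 4.29 CPM (SD, n = 4) in WT libraries, above the germ cell gene Ddx4 at 14.8 ± 1.13 CPM. The libraries thus held somatic as well as germ cell RNA, and which cells the Notch reads came from was not tested. In bulk RNA, fewer cells of a type and less RNA per cell cannot be told apart.

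Libraries labelled KO had more RNA of 4 of the 10 genes: the receptor genes Notch1, Notch3 and Notch4 and the ligand gene Dll4. The rises were 1.09-fold for Notch1, 1.13-fold for Notch3, 1.32-fold for Notch4 and 1.48-fold for Dll4. None of the 10 fell, and neither target gene passed the test, which is an adjusted p under 0.05 over all genes tested by edgeR's quasi-likelihood method. Over all 23190 genes tested 5.14% passed in either direction, 2.35% passed as higher in KO libraries and 2.8% as lower. All 10 fold changes lay above 0, and their median was 0.11 (log2), against a median of 0.002 over all genes tested, of which 11754 lay above 0 and 11436 below. The groups of libraries did not overlap for 5 of the 10, where they did not overlap for 9.44% of all genes tested. The genes were chosen with earlier results of these data known, so these counts are a description.

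The sequences just upstream of the 4 genes that rose are shown because these genes moved together with the label. They come from RefSeq (GRCm38.p6), run 5′ to 3′ on the gene's strand and end before the first annotated exon at that start. Capitals mark matches, on either strand, to the motifs searched: the RBPJ site GTGGGAA, the ETS factor site AGGAAG, the E-box CACGTG, the AP-1 site TGANTCA, the GC-box GGGCGG, the TATA box TATAAA and the CCAAT-box, named for its letters.
Notch1, chr2:26503825-26504072, minus strand: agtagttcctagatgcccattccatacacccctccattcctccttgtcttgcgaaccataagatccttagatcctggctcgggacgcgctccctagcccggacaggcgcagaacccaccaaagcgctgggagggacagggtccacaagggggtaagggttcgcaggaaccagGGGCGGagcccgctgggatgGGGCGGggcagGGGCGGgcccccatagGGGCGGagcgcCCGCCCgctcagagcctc
Notch3, chr17:32166891-32167140, minus strand: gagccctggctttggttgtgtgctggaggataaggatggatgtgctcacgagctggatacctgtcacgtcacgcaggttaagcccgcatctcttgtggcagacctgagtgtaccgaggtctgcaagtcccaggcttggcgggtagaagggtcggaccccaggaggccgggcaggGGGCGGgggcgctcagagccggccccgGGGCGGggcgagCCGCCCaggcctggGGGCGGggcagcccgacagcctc
Notch4, chr17:34564045-34564267, plus strand: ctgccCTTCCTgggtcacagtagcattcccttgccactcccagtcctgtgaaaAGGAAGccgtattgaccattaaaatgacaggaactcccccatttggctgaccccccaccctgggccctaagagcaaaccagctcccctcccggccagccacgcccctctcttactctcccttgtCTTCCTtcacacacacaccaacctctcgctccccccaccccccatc
Dll4, chr2:119325534-119325783, plus strand: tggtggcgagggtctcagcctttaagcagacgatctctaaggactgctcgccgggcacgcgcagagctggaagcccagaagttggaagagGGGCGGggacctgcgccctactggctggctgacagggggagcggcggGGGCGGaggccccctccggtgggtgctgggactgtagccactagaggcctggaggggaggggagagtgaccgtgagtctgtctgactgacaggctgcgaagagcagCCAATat
The Notch1, Notch3 and Dll4 stretches held 5, 4 and 2 GC-boxes and no ETS site. The Dll4 stretch also held 1 CCAAT-box. The Notch4 stretch held 3 ETS site matches and no GC-box. It had 4 CpG dinucleotides in 223 bases, where Notch1 had 16 in 248, Notch3 had 17 in 250 and Dll4 had 14 in 250. None of the 4 held the letters of the RBPJ site, the E-box, the AP-1 site or the TATA box. Among genes that did not pass, the Notch2 stretch held 5 GC-boxes and 34 CpG dinucleotides in 239 bases. The Jag1 stretch held no match and 14 CpG dinucleotides in 126 bases, and no Dll1 stretch (97 and 250 bases) held a GC-box. No stretch was read for Jag2, Hes1 or Heyl. GC-boxes were thus not particular to the genes that rose, since Notch2 held them too. Among the 32851 RefSeq promoters, the 250 bases upstream held the GC-box in 32.74%, the ETS site in 29.48%, the CCAAT-box in 33.85%, the TATA box in 12.37%, the AP-1 site in 6.75%, the E-box in 6.02% and the RBPJ site in 5.42%, and the median promoter had 6 CpG dinucleotides. A match is a run of letters and not a measured site, and its absence says only that these letters are not in this window. The Notch1 stretch lies inside the gene as annotated, in an intron of a longer transcript.

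Among the receptors, Notch2 had the highest level per exon length. Its gene lies on chromosome 3 from 98013527 to 98150361 (GRCm38, ENSMUSG00000027878). In the libraries labelled WT it had 299, 310, 303 and 294 CPM in replicates 1 to 4, and in those labelled KO 296, 314, 320 and 312. The groups overlapped. The log2 fold change (always KO over WT) was 0.04 with a 95% interval of -0.004 to 0.09 (edgeR adjusted p = 0.390).

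Notch3, the receptor best known from vascular smooth muscle and pericytes, lies on chromosome 17 from 32120820 to 32166852 (ENSMUSG00000038146). It had 117, 121, 126 and 117 CPM in WT libraries and 132, 133, 136 and 141 in KO libraries. Every KO library was above every WT library. The means were 120 ± 4.47 and 135 ± 3.91 CPM (SD, n = 4), a log2 fold change of 0.17 (standard error 0.03, edgeR adjusted p = 1.525e-05). Of its exonic bases 6.03% also belong to Gm17276 on the opposite strand, which had 651 counts in the 8 libraries together, against 8810 and 9719 counts of Notch3 in the WT and KO libraries. Notch1 shares 7.5% of its exonic bases with 0610009E02Rik (74 counts in all) and 2.91% with Gm13568 (6 counts), both on the opposite strand. Dll4 shares 5.56% with Gm14207 (33 counts) on the opposite strand, and Notch2 5.02% with Gm42820 (1855 counts) on the same strand.

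Notch1, which acts in many tissues including endothelium, lies on chromosome 2 from 26457903 to 26516663 (ENSMUSG00000026923). Its values were 82.8, 78.5, 80.1 and 81.8 CPM in WT libraries and 88.1, 87.8, 85.6 and 90.8 in KO libraries. The groups did not overlap, and the lowest KO library lay close above the highest WT library. The means were 80.8 ± 1.91 and 88.1 ± 2.12 CPM (SD, n = 4). Its rise was 0.13 in log2 units (standard error 0.04, edgeR adjusted p = 0.0212). That call was lost with library totals in place of TMM (adjusted p = 0.0694), with DESeq2 (0.0651), without WT replicate 2 (0.102), without WT replicate 3 (0.0669) and without KO replicate 4 (0.126).

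Notch4, known from endothelial cells, had the lowest level of the receptors per exon length. It lies on chromosome 17 from 34564268 to 34588503 (ENSMUSG00000015468). It had 11.6, 11.2, 10.5 and 8.56 CPM in WT libraries and 13.6, 14.0, 14.7 and 13.1 in KO libraries, from 766 and 993 counts in all. The groups did not overlap, and the lowest of the 8 values was that of WT replicate 4. From a mean of 10.5 ± 1.34 CPM to 13.9 ± 0.664 (SD, n = 4), Notch4 rose by 0.40 in log2 units (standard error 0.09, 95% interval 0.22 to 0.59, edgeR adjusted p = 0.00106).

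**Figure D1:**
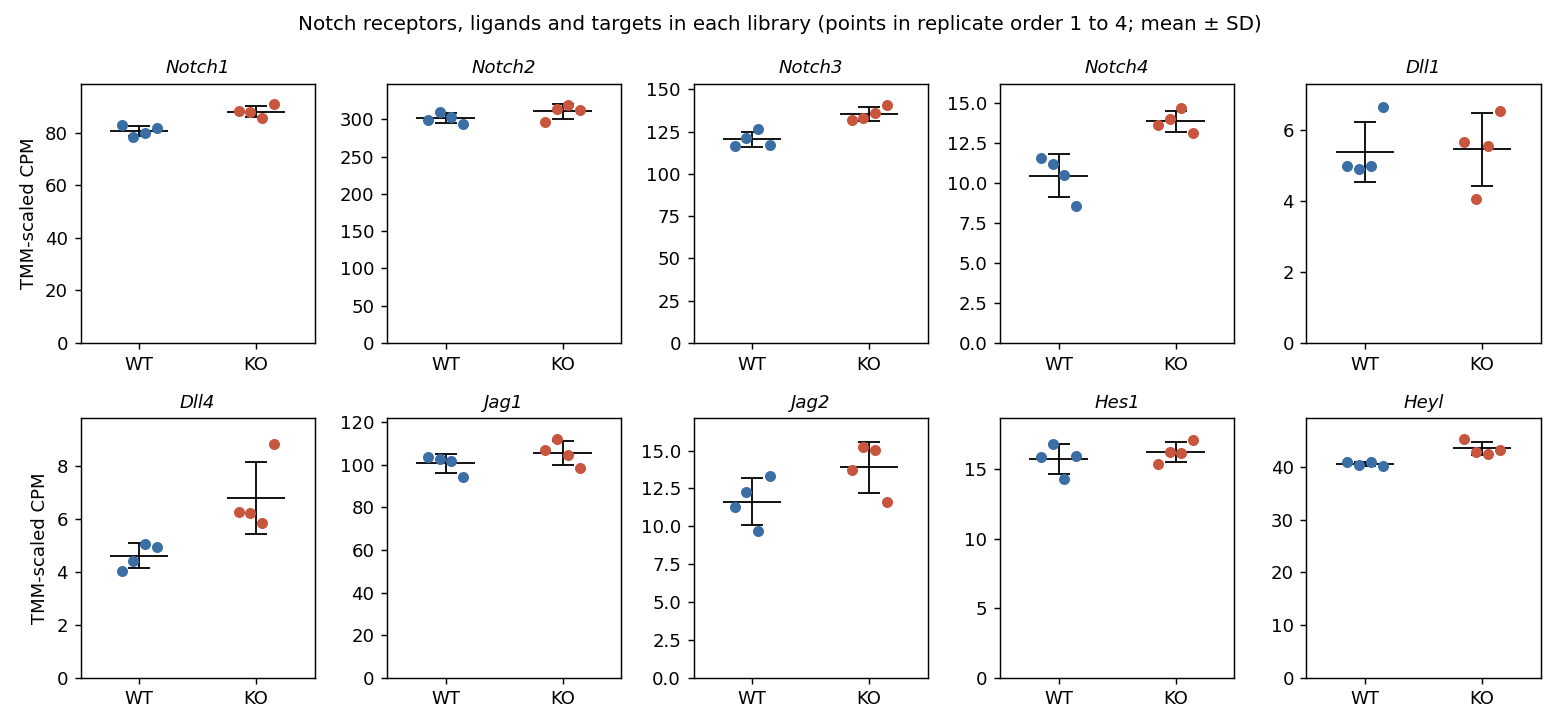
TMM-scaled CPM (vertical axis, from 0) of each of the 10 genes in the 4 libraries labelled WT (blue) and the 4 labelled KO (red). Points are libraries in replicate order, and lines are the mean ± SD. Red points lie above all blue points for Notch1, Notch3, Notch4, Dll4 and Heyl, and 1 KO library stands apart for Dll4.

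Within a library, the counts of 2 receptor genes can be set against each other with no scaling between libraries. Counts of Notch3 were 0.391 to 0.417 of those of Notch2 in WT libraries and 0.424 to 0.451 in KO libraries. Counts of Notch4 were 0.0291 to 0.0387 of those of Notch2 in WT libraries and 0.0420 to 0.0461 in KO libraries. Both ratios were higher in every KO library, while that of Notch1 to Notch2 overlapped (0.253 to 0.278 and 0.268 to 0.298). Per exon length, Notch2 made up 55.5 to 56.8% of the receptor signal in WT libraries and 53.1 to 54.6% in KO libraries, and Notch4 2.18 to 2.91% and 2.99 to 3.36%. These ratios are descriptions of genes already tested.

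Among the ligands, Dll4, the Delta-like ligand of sprouting and arterial endothelium, was the gene that passed. It lies on chromosome 2 from 119325784 to 119335962 (ENSMUSG00000027314). It had 4.03, 4.41, 5.05 and 4.92 CPM in WT libraries and 6.24, 6.21, 5.83 and 8.81 in KO libraries, from 337 and 489 counts in all. Every KO library was above every WT library, and KO replicate 4 was far above the other KO libraries. From a mean of 4.603 ± 0.470 CPM to 6.77 ± 1.37 (SD, n = 4), Dll4 rose by 0.56 in log2 units (standard error 0.13, 95% interval 0.30 to 0.83, edgeR adjusted p = 0.00193). Without KO replicate 4 it was 0.40 and was not called (adjusted p = 0.123).

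Dll1, a ligand known from somites and neural progenitors, was scarce like Dll4 and did not pass. Its gene lies on chromosome 17 from 15367354 to 15376872 (ENSMUSG00000014773). WT replicates 1 to 3 lay between 4.91 and 5.0 CPM and WT replicate 4 at 6.65 CPM, while the KO libraries had 5.69, 4.06, 5.57 and 6.56 CPM. The groups overlapped over most of their range, and the log2 fold change was 0.03 with a 95% interval of -0.24 to 0.30 (edgeR adjusted p = 0.949). Its sign turned in 3 of the fits that left a library out, with a lowest value of -0.07. The count ratio of Dll4 to Dll1 was 0.739 to 1.01 in WT libraries and 1.05 to 1.53 in KO libraries, with no overlap.

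Jag1, the ligand gene with the highest level per exon length, lies on chromosome 2 from 137081456 to 137116644 (ENSMUSG00000027276). It had 104, 103, 102 and 94.0 CPM in WT libraries and 107, 112, 105 and 98.4 in KO libraries. KO replicate 4 lay within the range of the WT libraries and the other 3 KO libraries above it. The log2 fold change was 0.07 with a 95% interval of -0.002 to 0.13 (edgeR adjusted p = 0.340).

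Jag2, a ligand known from limb and thymus development, lies on chromosome 12 from 112907819 to 112929776 (ENSMUSG00000002799). It had 11.3, 12.2, 9.68 and 13.3 CPM in WT libraries and 13.7, 15.2, 15.02 and 11.6 in KO libraries. KO replicate 4 fell within the range of the WT libraries, while the other 3 KO libraries lay above it. The log2 fold change was 0.25 with a 95% interval of 0.07 to 0.44 and did not pass (edgeR adjusted p = 0.0889). It passed without KO replicate 4 (0.34, adjusted p = 0.0224) and without WT replicate 4 (0.32, adjusted p = 0.0348). Leaving out KO replicate 4 thus ended the call of Dll4 and brought in that of Jag2.

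The target genes encode basic helix-loop-helix repressors. Hes1, the classic target of RBPJ, lies on chromosome 16 from 30064384 to 30067796 (ENSMUSG00000022528). It had 15.9, 16.8, 14.3 and 16.0 CPM in WT libraries and 15.3, 16.3, 16.1 and 17.1 in KO libraries. The groups overlapped, with a log2 fold change of 0.04 and a 95% interval of -0.11 to 0.20 (edgeR adjusted p = 0.867). Without WT replicate 3 the value was -0.0017.

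Heyl, a Hey-family repressor gene known from vascular mural cells, lies on chromosome 4 from 123233556 to 123249875 (ENSMUSG00000032744). It had 40.9, 40.3, 40.9 and 40.2 CPM in WT libraries and 45.4, 42.9, 42.6 and 43.4 in KO libraries. The KO libraries all lay above the WT libraries, as they did for 4.72% of all genes tested. The log2 fold change was 0.10 with a 95% interval of 0.0007 to 0.20 and did not pass (edgeR adjusted p = 0.316). The counts of Hes1 per count of Heyl overlapped between the labels (0.349 to 0.416 and 0.338 to 0.395).

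**Figure D2:**
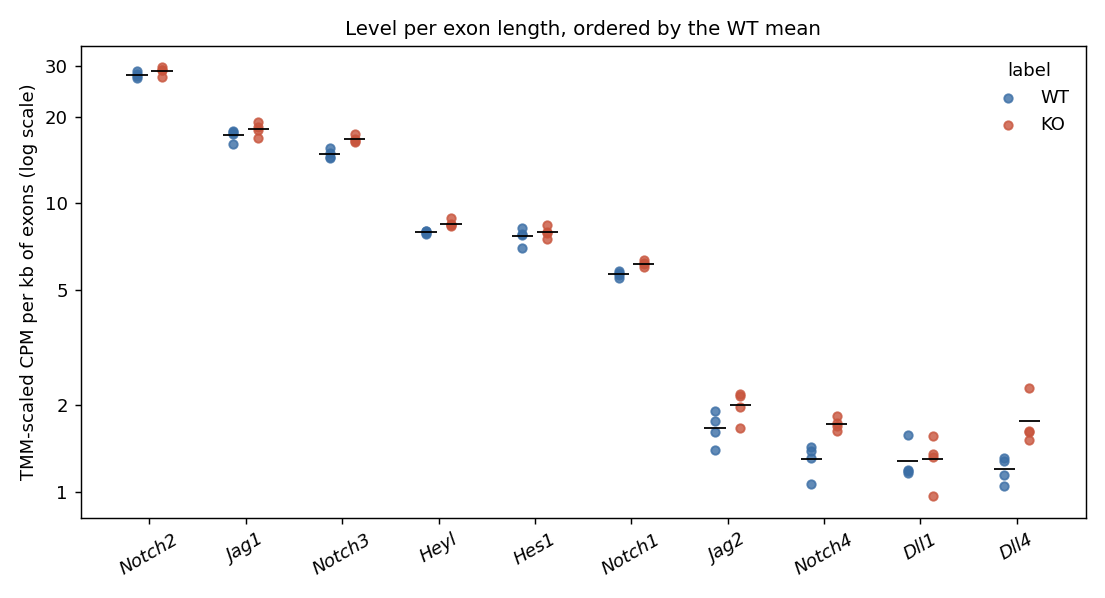
Level of the 10 genes per kb of exons (vertical axis, TMM-scaled CPM per kb, log scale), ordered by the mean of the libraries labelled WT. Points are the 4 libraries of each label (WT blue, KO red) and lines their means. Notch2 is highest at 28.0 in WT, and Jag2, Notch4, Dll1 and Dll4 lie lowest, between 1.20 and 1.67.

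Levels of different genes were compared per kb of exons, as CPM per kb. The exon length merges all annotated transcripts of a gene, so it can be longer than a single mRNA, and the scale is approximate. With the WT label Notch2 was highest at 28.0 ± 0.615 CPM per kb (SD, n = 4), followed by Jag1 at 17.3 ± 0.767 and Notch3 at 14.9 ± 0.552. Heyl at 7.94 ± 0.0734 and Hes1 at 7.72 ± 0.521 came next and overlapped each other. Notch1 stood at 5.68 ± 0.134. Jag2 (1.67 ± 0.221), Notch4 (1.30 ± 0.166), Dll1 (1.28 ± 0.200) and Dll4 (1.20 ± 0.122) formed the lowest group, in which each overlapped the next. With the KO label the order was the same down to Jag2, except that Jag1 and Notch3 now overlapped (18.1 ± 0.959 and 16.7 ± 0.483 CPM per kb). Dll4, lowest in WT libraries, stood above Notch4 and Dll1 in KO libraries, at 1.76 ± 0.357 against 1.72 ± 0.0823 and 1.30 ± 0.246, though its libraries overlapped those of both. Jag1 made up 77.2 to 82.2% of the ligand signal per exon length in WT libraries and 75.4 to 80.1% in KO libraries.

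The rest of the pathway was read from a list of 57 other genes, of which 55 had enough reads to be tested. None passed edgeR's test, DESeq2 or limma voom. At an unadjusted p under 0.05 there were 8 of the 55, while 15.6% of all genes tested had such a p. Of the 55 fold changes 29 lay above 0 and 26 below, and their median was 0.002 (log2). Adam10, which makes the first cut of the bound receptor, was at 73.1 ± 1.40 CPM in WT libraries and 73.3 ± 1.96 in KO libraries (log2 fold change 0.003, 95% interval -0.07 to 0.08). Furin, which cleaves the receptor on its way to the surface, was at 56.9 ± 2.94 and 57.5 ± 2.52 CPM (0.02, interval -0.07 to 0.10).

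Genes of ligand and receptor handling did not pass either. Mib1, the ubiquitin ligase that lets ligands be pulled into the sending cell, was at 174 ± 5.42 CPM in WT libraries and 173 ± 5.90 in KO libraries (log2 fold change -0.0095, 95% interval -0.06 to 0.05). Itch, a ubiquitin ligase that lowers Notch, was at 86.2 ± 3.10 and 85.8 ± 2.03 CPM (interval -0.08 to 0.06). Pofut1, which adds the fucose that Notch needs, was at 60.5 ± 2.23 and 59.95 ± 1.57 CPM (interval -0.0996 to 0.07), and Rfng, a Fringe that extends that fucose, at 35.5 ± 3.79 and 36.9 ± 0.875 CPM (interval -0.06 to 0.16). Of 13 genes of ubiquitin ligases and endocytosis, 8 glycosyltransferase genes and 10 protease genes, none passed. Dtx2, a Deltex gene named after its value was seen, had the lowest fold change of the ubiquitin and endocytosis genes (-0.21, edgeR adjusted p = 0.0851).

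Genes of the nuclear complex and its corepressors did not pass. Of the 14 tested, 10 had a fold change above 0 and 4 below. Their summed level was 1408 to 1427 CPM in WT libraries and 1440 to 1452 in KO libraries, with no overlap. Abundant genes weigh most in this sum, and only 1 of the 14, Ep300, had groups that did not overlap. Ncor1, which encodes a corepressor, was at 420 ± 12.96 CPM in WT libraries and 429 ± 7.14 in KO libraries (log2 fold change 0.03, edgeR adjusted p = 0.554). Spen, which encodes a corepressor that binds RBPJ, was at 326 ± 6.28 and 329 ± 8.34 CPM (0.01, 95% interval -0.03 to 0.06). Rbpj, the DNA-binding partner of Notch, was at 58.0 ± 3.07 and 61.4 ± 1.39 CPM (log2 fold change 0.08, edgeR adjusted p = 0.346). Ep300, a histone acetyltransferase gene, was at 230 ± 4.06 and 242 ± 1.93 CPM and came closest to passing (0.07, 95% interval 0.03 to 0.12, edgeR adjusted p = 0.0559). Both Rbpj and Ep300 were named after their values were seen. Other targets were scarce. Hey1 was at 7.29 ± 0.737 and 7.55 ± 0.547 CPM (log2 fold change 0.05, 95% interval -0.18 to 0.28) and Hes6, a Hes-family gene, at 6.12 ± 0.711 and 6.27 ± 0.790 (0.04, interval -0.22 to 0.29). Hes2 had too few reads to be tested. Of the ligands outside the core set, Dlk1, expressed in fetal Leydig cells, was at 200 ± 5.79 and 191 ± 5.31 CPM (-0.07, edgeR adjusted p = 0.113), Dner, a neural ligand gene, at 1.31 ± 0.222 and 1.05 ± 0.193 (-0.32, adjusted p = 0.686), and Dlk2 had too few reads.

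**Figure D3:**
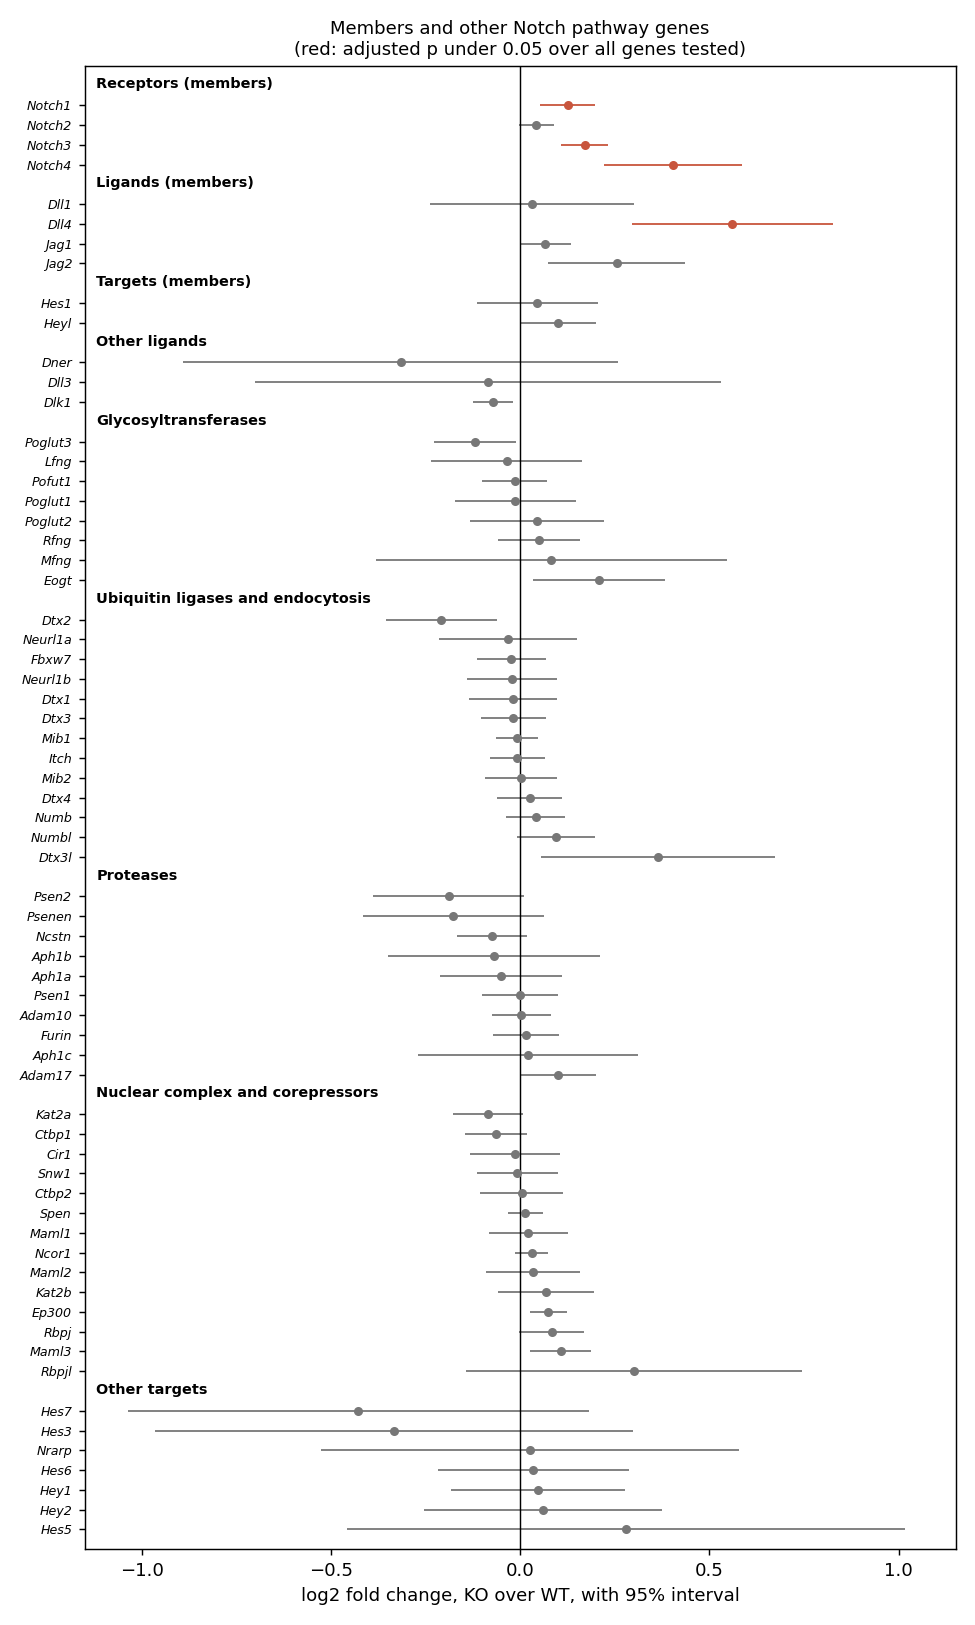
Log2 fold change, KO over WT (horizontal axis), with its 95% interval, for the 10 genes (top) and the 55 other pathway genes tested, grouped by role. Red marks an adjusted p under 0.05 over all genes tested: Notch1, Notch3, Notch4 and Dll4, and no gene of the other groups.

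Some markers of cell types in which the pathway is known to act moved with the label too, and not all in the same direction. Of 6 Leydig cell markers 4 fell and none rose, and of 8 interstitial stroma markers 1 fell and none rose. Both summed levels, given above, were lower in KO libraries with no overlap. Of 12 endothelial markers 3 rose, none fell and 9 did not pass. The risers were Kdr, the main VEGF receptor gene (log2 fold change 0.22, edgeR adjusted p = 0.000132), Flt1 (0.27, 0.000918) and Pecam1 (0.23, 0.0143). The median over the 12 was 0.18, and their summed level was 235 to 247 CPM in WT libraries and 259 to 270 in KO libraries, with no overlap. Cdh5, the most abundant of them, which encodes the endothelial cadherin, was at 74.3 and 75.2 CPM (log2 fold change 0.02, edgeR adjusted p = 0.890). All 12 had a smaller fold change than Notch4 and Dll4. None was at 0 in all libraries.

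Set against the summed counts of these endothelial markers in the same library, a comparison chosen after the data were seen, Notch4 stood at 4.67, 4.78, 4.42 and 3.62% in WT libraries and 5.14, 5.18, 5.67 and 4.97% in KO libraries. Dll4 stood at 1.63, 1.88, 2.12 and 2.08% and at 2.35, 2.30, 2.25 and 3.34%. Neither gene's groups overlapped on this scale. Both genes rose by more than each of these markers, so a higher share was bound to follow from fold changes already given. Whether endothelial content differed between the labels was not tested. Notch1 (33.4 to 34.6% and 32.5 to 34.4%), Notch3 (47.1 to 53.0% and 49.3 to 53.4%) and Heyl (16.5 to 17.2% and 15.9 to 17.1%) overlapped. Against the summed counts of the duct and tubule markers described below, all 5 of these genes were lower in KO libraries with no overlap: Notch4 stood at 15.9 to 23.4% in WT libraries and 11.3 to 13.3% in KO libraries, and Dll4 at 8.17 to 9.44% and 5.03 to 7.61%. The duct and tubule sum itself rose from 49.4 to 53.7 CPM in WT libraries to 103 to 116 in KO libraries. Any gene that rose by less was bound to be lower on that scale, so this comparison adds nothing about the 5 genes.

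Of 11 markers of pericytes and smooth muscle, Rgs5, a pericyte gene, rose (log2 fold change 0.50, edgeR adjusted p = 6.42e-05) and the other 10 did not pass. The median was 0.04, and the summed level was 563 to 580 CPM in WT libraries and 579 to 601 in KO libraries, which overlap. As a percent of these summed counts Notch3 was 20.2 to 21.9% in WT libraries and 22.5 to 24.3% in KO libraries, with no overlap. Heyl was 6.93 to 7.17% and 7.08 to 7.76%, with overlap. The sum moved little between the labels, so the share of Notch3 mostly repeats its rise, already tested. Rgs5, at 9.04 CPM in WT libraries, was a small part of the sum. Whether pericyte content differed was not tested.

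Markers of duct and tubule epithelium showed the steepest shift upward among the lists read. All 12 rose, with a median log2 fold change of 1.05 and a lowest of 0.69, above that of any of the 10 Notch genes. Their summed level was 49.4 to 53.7 CPM in WT libraries and 103 to 116 in KO libraries. These markers were already known from these data to be higher. In the other direction, the summed level of 8 erythroid genes was 225 to 239 CPM in WT libraries and 94.0 to 98.7 in KO libraries, and 5 of the 8 fell. The 8 macrophage genes summed to 24.2 to 25.7 CPM and 20.1 to 22.2 CPM, but 4 were too low to test and the 4 tested did not pass (edgeR adjusted p = 0.273 to 0.901). The part of these cells in the Notch values was not tested.

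**Figure D4:**
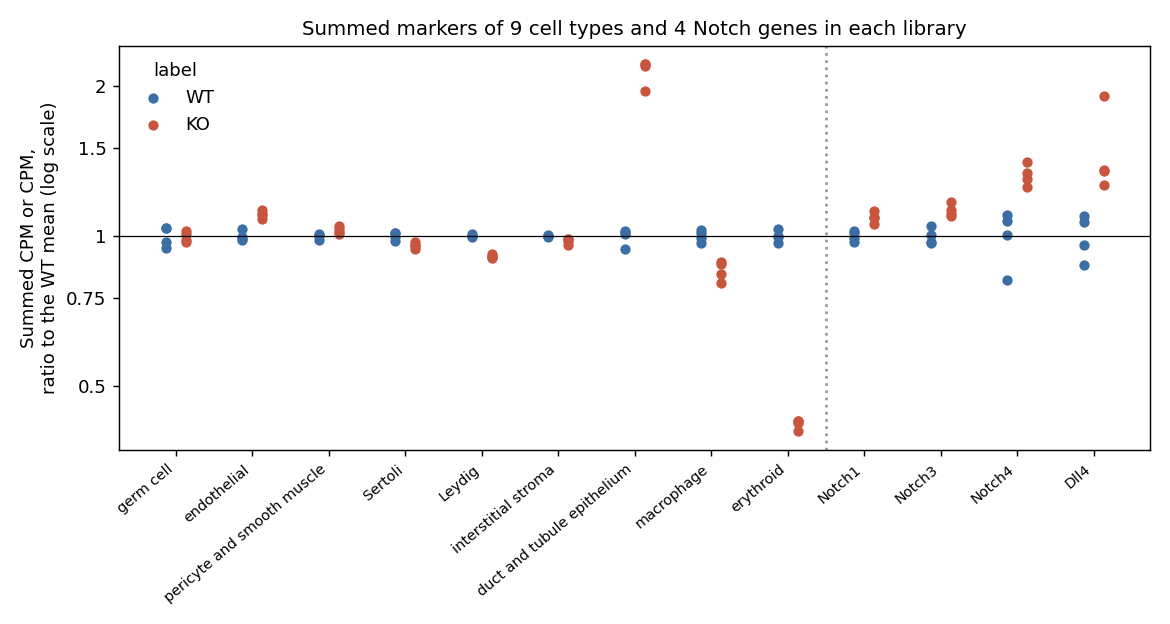
Summed CPM of the markers of 9 cell types (left of the dotted line) and CPM of 4 Notch genes (right) in each library, as a ratio to the mean of the libraries labelled WT (vertical axis, log scale). Blue points are WT and red points KO libraries. Endothelial and duct markers and the 4 Notch genes are above 1 in every KO library, erythroid markers are below 0.5, and the sum of the germ cell markers scatters around 1.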

How the data were processed

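Libraries were prepared from total RNA of sorted germ cells with a SMARTer stranded pico-input kit, per the labels' protocols. The authors deposited raw counts per gene for the 8 libraries, with no normalization. STAR 2.5.2b, Subread, featureCounts and DESeq2 and the build GRCm38 are named in the submitters' processing notes, without roles or settings. Whether counting used strand is not given in the sources used here, so genes that overlap on opposite strands are uncertain. Of 55487 genes 55141 matched a symbol of GENCODE M21, whose positions for all 10 genes were those of the count table.

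Counts were tested in R 4.3.3 with edgeR 4.0.16 (filterByExpr, TMM, robust quasi-likelihood, two-sided, no other term), with Benjamini-Hochberg adjustment over all 23190 genes tested and calls under 0.05. Intervals of fold changes use the same fit. Alternatives were other scalings and filters, DESeq2 1.42.0, limma 3.58.1 voom, the replicate number as a block, other thresholds and each library left out. Replicate libraries differed by more than sampling noise (chi-squared per degree of freedom 1.68 to 3.60). The common coefficient of variation beyond sampling noise was 3.86% in edgeR's fit. Whether it measures spread between animals is not in the labels. Intervals cover the spread between libraries.

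The genes, the lists of other pathway genes and cell type markers, and the rule for naming were chosen with earlier results of these data known. Named were all 10 genes, called genes of the pathway list and up to 2 uncalled genes per list with the highest level. 1 further gene was left out of the pathway list and is not reported here.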

Additional observations from a re-analysis of the deposited data

Results flagged for a closer look

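In groups of 4 libraries, a lone value was looked for among the 10 Notch genes, the pathway genes named by level, and Ep300, Dtx2 and Rbpj, which were named after their values were seen, in 50 groups, of which chance would mark about 1 in 20. There were 4. Dll4 was at 8.81 CPM in KO replicate 4, where the next KO library was at 6.24 CPM. Dll1 was at 6.65 CPM in WT replicate 4, where the next WT library was at 5.0 CPM. Ncor1 was at 440 CPM in KO replicate 1, against 426 CPM in the next KO library. Ep300 was at 239 CPM in KO replicate 3, lowest of its group, against 243 CPM in the nearest.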

How the results depend on the processing

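The count of Notch genes called higher was 4 and lay between 3 and 5 over the 18 alternatives, and the count called lower was 0 in each. Leaving out 1 library at a time gave 3 to 5 higher. Notch3 (0.15 to 0.19, highest adjusted p = 0.00145) and Notch4 (0.32 to 0.45, highest adjusted p = 0.0325) were called under all 16 alternatives fitted for them. Notch1 lost its call in 5 (0.11 to 0.14, adjusted p 0.0115 to 0.126) and Dll4 in 1 (0.40 to 0.63, adjusted p 0.00161 to 0.123). All 10 fold changes stayed above 0 under each scaling, filter and tool, but with a library left out Dll1 ranged from -0.0727 to 0.146 and Hes1 from -0.0017 to 0.0795.

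Of the other pathway genes, none was called in the reported fit. With upper-quartile scaling 1 was higher (Ep300), with library totals 1 was lower (Dlk1), and at an adjusted p under 0.10 there was 1 higher (Ep300) and 1 lower (Dtx2). Leaving out 1 library gave 0 to 1 higher and 0 to 1 lower. With the replicate number as a block 1 was higher (Ep300, adjusted p = 0.0463), and no call among the 10 Notch genes changed. Same-numbered libraries shared little deviation (correlations -0.003 to 0.045), which cannot settle whether they were paired, and the labels do not say. The most correlated KO library had the same number for WT replicates 1 and 3, and another number for 2 and 4. The block thus rests on a shared number only, with 1249 genes called against 1193.

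Over all genes, 544 of the 1193 calls were higher in the reported fit and 426 of 1262 with library totals. DESeq2 called 729 genes. At an adjusted p under 0.01 there were 678 calls. Low counts limit Dll1 (392 counts over the WT and 395 over the KO libraries) and Dll4 (337 and 489).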
